A study of Mus musculus with 4 samples.

Results

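A set of 10 receptor genes that neutrophils use to sense chemoattractants, to leave the bone marrow, to adhere and to respond to growth factor were followed in bone marrow cells of mice labelled as knockouts of the Polycomb protein Mel18 and of wild type mice. The genes were Cxcr2, Cxcr4, Ccr1, Fpr1, Fpr2, C5ar1, Ltb4r1, Csf3r, Itgam and Cd14. They were chosen by symbol from the deposited gene table, and all 10 were among its 15607 genes and passed its filter on low counts. RNA-seq libraries were made from bone marrow cells depleted of cells with mature lineage markers (lineage-negative), which the labels call hematopoietic stem and progenitor cells. The groups were Mel18 knockout (mice 5 and 6, a conditional deletion in the hematopoietic system) and Wildtype (mice 1 and 3), with 1 library per mouse. The allele's deleted exons, the Cre driver, the strain, the age and the lineage antibodies were not given in the sources used here. Libraries held 46240864 and 44642002 counts in knockout mice 5 and 6, and 35599564 and 37197363 in wild type mice 1 and 3, and each receptor had between 577 and 10961 counts in every library.

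Neutrophils find sites of infection through G protein-coupled receptors for chemokines, formylated bacterial peptides, complement C5a and leukotriene B4. In the marrow, CXCR4 binding to CXCL12 retains neutrophils, CXCR2 signalling favours their release, and G-CSF acting on its receptor drives their production. CD11b, the integrin chain encoded by Itgam, supports firm adhesion, and CD14 presents bacterial lipopolysaccharide to TLR4. Several of these genes are switched on late in granulocyte maturation, while Cxcr4 and Csf3r are also used by immature cells.

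The annotated starts of Fpr1 and Fpr2 lay head to head on mouse chromosome 17, 3884 bases apart. The promoters of this pair, of Cxcr2 and of Csf3r are shown because Fpr2 and Cxcr2 were the receptors that passed the test below, Fpr1 is the neighbour of Fpr2, and Csf3r had the smallest difference. Each is the 250 bases before the RefSeq start on GRCm38.p6, read 5′ to 3′ on the gene's strand. Capitals mark any match on either strand to one of 4 motifs, which were GAGGAA for PU.1, TTNNGNAA for C/EBP, TGTGGT for RUNX and TGANTCA for AP-1.
Fpr2, chr17:17887574-17887823, plus strand: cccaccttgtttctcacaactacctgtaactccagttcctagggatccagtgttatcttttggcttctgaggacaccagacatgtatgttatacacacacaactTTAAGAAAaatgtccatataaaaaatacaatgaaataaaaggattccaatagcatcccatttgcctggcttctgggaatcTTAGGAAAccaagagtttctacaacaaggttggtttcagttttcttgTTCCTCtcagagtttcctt
Fpr1, chr17:17883940-17884189, minus strand: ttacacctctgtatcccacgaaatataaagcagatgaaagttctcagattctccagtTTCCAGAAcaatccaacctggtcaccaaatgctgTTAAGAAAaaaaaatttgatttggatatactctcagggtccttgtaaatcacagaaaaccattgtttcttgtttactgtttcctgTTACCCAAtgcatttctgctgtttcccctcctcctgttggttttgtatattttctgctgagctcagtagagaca
Cxcr2, chr1:74153744-74153993, plus strand: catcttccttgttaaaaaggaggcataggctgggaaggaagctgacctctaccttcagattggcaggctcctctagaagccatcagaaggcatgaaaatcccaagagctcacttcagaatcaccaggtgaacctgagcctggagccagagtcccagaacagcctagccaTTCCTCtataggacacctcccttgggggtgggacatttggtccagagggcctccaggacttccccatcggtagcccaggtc
Csf3r, chr4:126024409-126024658, plus strand: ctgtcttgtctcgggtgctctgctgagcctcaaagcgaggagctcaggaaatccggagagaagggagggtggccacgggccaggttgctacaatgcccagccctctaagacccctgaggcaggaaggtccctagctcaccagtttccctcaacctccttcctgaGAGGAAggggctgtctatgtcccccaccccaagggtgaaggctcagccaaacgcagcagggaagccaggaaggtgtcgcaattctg

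RefSeq promoter windows were used for 9 of the receptors. The PU.1 motif, named for a transcription factor of myeloid cells, was found in 6 of these 9 windows and in 23.3% of all 32851 promoter windows of the same length. The C/EBP motif, named for factors of granulocyte differentiation, was in 6 of 9 and in 36.8% of all windows. In Ccr1 the match to C/EBP contained the match to PU.1. The RUNX motif was in 3 of 9, and in 4614 of all 32851 windows. The AP-1 motif was in 0 of 9 and in 6.75% of all windows. Among the printed promoters, Fpr2 held both a PU.1 and C/EBP matches, Fpr1 held C/EBP matches only, and Cxcr2 and Csf3r each held 1 PU.1 match and no other. Whether any of these motifs bears on the differences between the groups was not tested.

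All 10 receptors had negative log2 fold changes of knockout over wild type, as did 7983 of all 15607 genes, and Fpr2 and Cxcr2 fell. CPM values (counts scaled to library size with edgeR's TMM factors) were compared with the edgeR quasi-likelihood test, adjusted by the Benjamini-Hochberg method over all 15607 genes with a threshold of 0.05. Both called receptors were lower, where 0.103% of all genes were called lower. Without adjustment, 8 of the 10 were lower at a p under 0.05, beside 5.56% of all genes. The median log2 fold change of the 10 was -0.59, beside -0.005 over all genes. For 9 of the 10, the higher knockout library was still below the lower wild type library, which held for 20.9% of all genes, and Csf3r was the exception. Neither call held with limma voom (adjusted p of 0.0894 for Fpr2 and 0.0927 for Cxcr2) or without robust estimation (0.0719 and 0.0777), and that of Cxcr2 was also lost with a filter of 1 CPM in 2 libraries (0.0520), at nearly the same log2 fold changes. The authors' deposited table gives an adjusted p under 0.05 to 4 of the 10, all lower (Fpr2, Cxcr2, Ccr1 and Fpr1), and to 0.762% of all genes in that direction. Pcgf2, which encodes Mel18, had 303 and 321 counts in the libraries labelled knockout and 210 and 158 in wild type libraries (quasi-likelihood adjusted p = 0.575). The count covers the whole gene, so it does not check the deletion, and every direction here is between libraries by their labels.

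**Figure D1:**
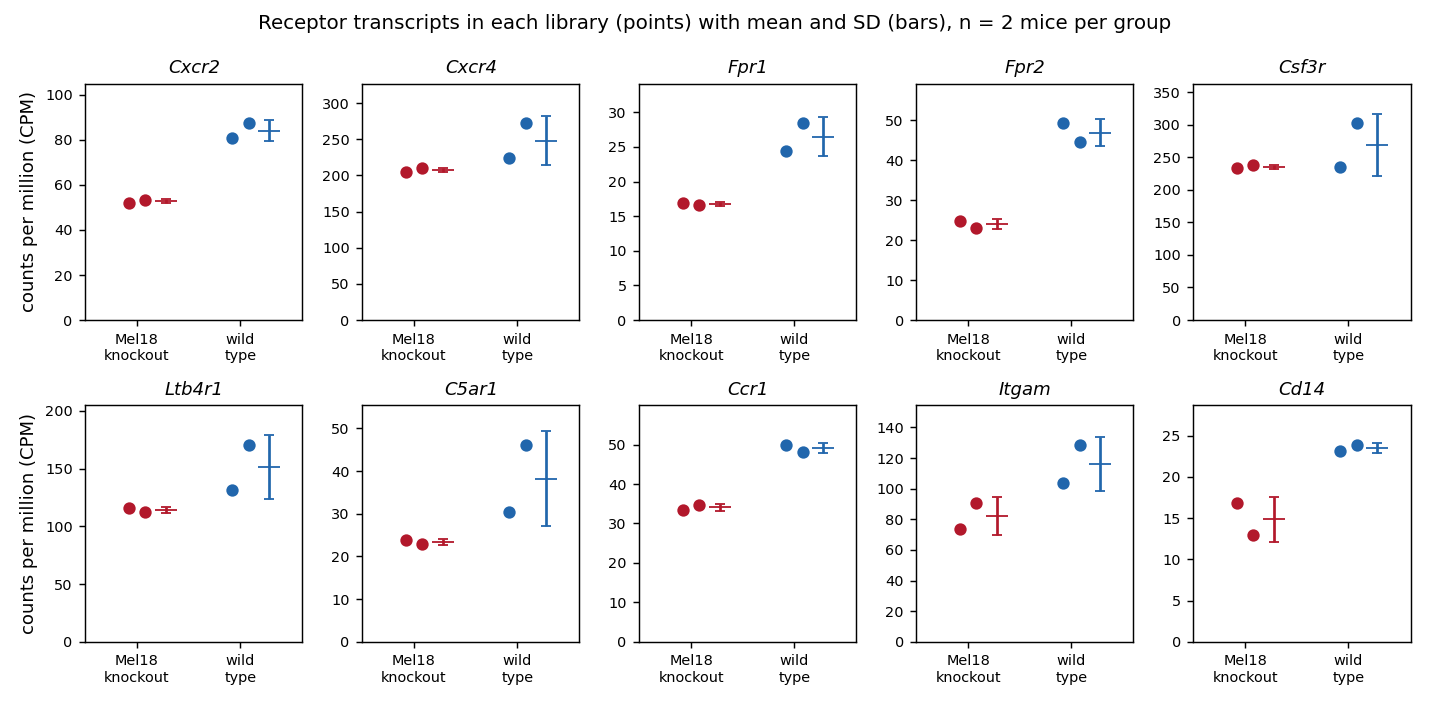
CPM of each receptor (vertical axes, each from 0) in the 2 Mel18 knockout libraries (red, left) and the 2 wild type libraries (blue, right), with the mean and SD beside the points. The knockout points lie below both wild type points in every panel but that of Csf3r, and for C5ar1 the wild type points at 30.3 and 46.1 CPM stand far apart.

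Fpr2 encodes a formyl peptide receptor that also binds annexin A1, and it had the largest difference of the 10. It was at 24.8 and 23.1 CPM in knockout mice 5 and 6, against 49.3 and 44.5 CPM in wild type mice 1 and 3. The groups did not overlap, and the libraries of a group were close to each other. The means were 24.0 ± 1.21 CPM in knockout and 46.9 ± 3.36 CPM in wild type (SD, n = 2 each), and the log2 fold change was -0.97 ± 0.10 (SE; 95% interval -1.20 to -0.74; quasi-likelihood adjusted p = 0.0353). That is a level 48.9% lower in knockout. The call was lost when either knockout mouse was left out, with log2 fold changes of -1.02 without mouse 5 and -0.92 without mouse 6. The log2 fold change was -0.89 without wild type mouse 1 and -1.05 without wild type mouse 3.

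Its neighbour Fpr1, the high-affinity receptor for bacterial formyl peptides, was at 16.9 and 16.6 CPM in knockout mice 5 and 6 and 24.4 and 28.4 CPM in wild type mice 1 and 3. The groups did not overlap, but the log2 fold change of -0.66 ± 0.11 (SE; 95% interval -0.93 to -0.39) did not pass over all genes (quasi-likelihood adjusted p = 0.141). It was -0.68 without knockout mouse 5 and -0.65 without knockout mouse 6. Leaving out wild type mouse 1 gave -0.76, and leaving out wild type mouse 3 gave -0.56. There were 1.47 and 1.39 Fpr2 reads per Fpr1 read in knockout mice 5 and 6, and 2.02 and 1.57 in wild type mice 1 and 3. Both knockout ratios were below both wild type ratios, with no test made. The Fpr1 and Fpr2 transcripts of GENCODE M21 aligned at 70.0% identity over 936 bases, and their longest identical run was 50 bases. Fpr2 is closer to 2 other annotated genes, with 95.8% identity to Gm5966 over 1037 bases and a longest identical run of 161 bases, and 87.4% to Fpr3 over 1131 bases. Fpr3 also shares 48 exonic bases with Fpr2 on the same strand. How the authors' counting assigned such reads was not stated in the sources used here, so the level of Fpr2 is uncertain to that extent. Neither Gm5966 nor Fpr3 was found by symbol in the deposited gene table.

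Cxcr2 encodes the receptor of mature neutrophils for CXCL1, CXCL2 and other chemokines. It was at 52.1 and 53.5 CPM in knockout mice 5 and 6, against 80.9 and 87.5 CPM in wild type mice 1 and 3. Libraries of a group were close to each other and the groups were well apart. The means were 52.8 ± 0.945 CPM in knockout and 84.2 ± 4.70 CPM in wild type (SD, n = 2 each), with a log2 fold change of -0.67 ± 0.08 (SE; 95% interval -0.85 to -0.49; quasi-likelihood adjusted p = 0.0449). The call was lost when either knockout mouse was left out, with log2 fold changes of -0.66 without mouse 5 and -0.69 without mouse 6. The log2 fold change was -0.73 without wild type mouse 1 and -0.62 without wild type mouse 3. A stretch of 537 of the 3046 bases of the Cxcr2 transcript aligned to another annotated transcript, A230085B16Rik, at 90.9% identity. Alignments were sought on both strands but long identical runs on the same strand only, where none was found. A run shared with the opposite strand could not be found this way.

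Cxcr4, the CXCL12 receptor that holds neutrophils and progenitors in the marrow, was at 205 and 209.9 CPM in knockout mice 5 and 6 and 224 and 273 CPM in wild type mice 1 and 3. The groups did not overlap, yet the knockout libraries lay nearer to wild type mouse 1 than the wild type libraries did to each other. The log2 fold change was -0.26 ± 0.11 (SE; 95% interval -0.52 to 0.00293; quasi-likelihood adjusted p = 0.564). It was -0.39 without wild type mouse 1 and -0.12 without wild type mouse 3. Leaving out knockout mouse 5 gave -0.25, and leaving out knockout mouse 6 gave -0.27. For each Cxcr2 read there were 3.94 and 3.92 Cxcr4 reads in knockout mice 5 and 6, and 2.77 and 3.11 in wild type mice 1 and 3. Both knockout ratios were above both wild type ratios, without a test of the ratio. Cxcr2 stood at percentile 3.64 of the log2 fold changes of all genes, so most genes lie higher in knockout per Cxcr2 read. Csf3r reads per Cxcr2 read were 4.47 and 4.44 in knockout mice 5 and 6, and 2.91 and 3.46 in wild type mice 1 and 3.

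Ccr1, a receptor for CCL3, CCL5 and related chemokines on neutrophils and monocytes, was at 33.5 and 34.8 CPM in knockout mice 5 and 6 and 49.9 and 48.2 CPM in wild type mice 1 and 3. The spread within either group was small beside the gap between them. The log2 fold change of -0.52 ± 0.08 (SE; 95% interval -0.72 to -0.33) did not pass (quasi-likelihood adjusted p = 0.105). It was -0.50 without knockout mouse 5 and -0.55 without knockout mouse 6. Leaving out wild type mouse 1 gave -0.50, and leaving out wild type mouse 3 gave -0.56.

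C5ar1, the receptor for the complement fragment C5a, was at 23.9 and 22.9 CPM in knockout mice 5 and 6 and 30.3 and 46.1 CPM in wild type mice 1 and 3. The wild type mice differed from each other more than knockout mouse 5 did from wild type mouse 1. The log2 fold change was -0.71 ± 0.19 (SE; 95% interval -1.18 to -0.23; quasi-likelihood adjusted p = 0.390). It was -0.98 without wild type mouse 1 and -0.38 without wild type mouse 3. Leaving out knockout mouse 5 gave -0.74, and leaving out knockout mouse 6 gave -0.68. Ltb4r1, the high-affinity leukotriene B4 receptor, followed the same order of libraries, with 116 and 112 CPM in knockout mice 5 and 6 and 132 and 171 CPM in wild type mice 1 and 3. The Ltb4r1 log2 fold change of -0.41 ± 0.13 (SE; 95% interval -0.71 to -0.11) did not pass (quasi-likelihood adjusted p = 0.417). Without wild type mouse 1 it was -0.58, and without wild type mouse 3 it was -0.22. Leaving out knockout mouse 5 gave -0.44, and leaving out knockout mouse 6 gave -0.39.

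Csf3r, the G-CSF receptor, was the only one of the 10 whose groups overlapped. It was at 233 and 238 CPM in knockout mice 5 and 6 and 235 and 303 CPM in wild type mice 1 and 3. Knockout mouse 6 lay above wild type mouse 1, and only wild type mouse 3 stood apart. The log2 fold change was -0.19 ± 0.13 (SE; 95% interval -0.49 to 0.11; quasi-likelihood adjusted p = 0.665), and it was -0.36 without wild type mouse 1 and -0.0089 without wild type mouse 3. A 1518-base stretch of its transcript aligned at 96.8% identity to another annotated transcript, AC105061.2, with a longest identical run of 108 bases. AC105061.2 was not found by symbol in the deposited gene table.

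Itgam was the adhesion receptor of the set, and CD11b is commonly one of the antigens by which mature myeloid cells are removed from a lineage-negative fraction. It was at 73.5 and 90.7 CPM in knockout mice 5 and 6 and 103 and 129 CPM in wild type mice 1 and 3. The groups did not overlap, and the knockout mice differed from each other more than for most of the receptors. The log2 fold change of -0.50 ± 0.14 (SE; 95% interval -0.84 to -0.16) did not pass (quasi-likelihood adjusted p = 0.389). Without knockout mouse 5 it was -0.36, and without knockout mouse 6 it was -0.66. The fits without wild type mouse 1 and without wild type mouse 3 gave -0.65 and -0.34. In GENCODE M21, 68.7% of the exonic bases of Itgam also belong to Gm49368 on the same strand. The level of Itgam therefore depends on how shared reads were counted, and Gm49368 was not found by symbol in the deposited gene table. Itgb2, whose product pairs with CD11b, was at 388 and 400.5 CPM in knockout mice 5 and 6 and 467 and 573 CPM in wild type mice 1 and 3 (log2 fold change -0.40, quasi-likelihood adjusted p = 0.411).

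Cd14, the lipopolysaccharide co-receptor shared by monocytes and neutrophils, was at 16.8 and 12.9 CPM in knockout mice 5 and 6 and 23.1 and 23.9 CPM in wild type mice 1 and 3. Here the knockout libraries were the ones apart from each other, and the wild type libraries were close. The log2 fold change was -0.66 ± 0.14 (SE; 95% interval -0.997 to -0.32; quasi-likelihood adjusted p = 0.230). Without knockout mouse 5 it was -0.87, and without knockout mouse 6 it was -0.48. The fits without wild type mouse 1 and without wild type mouse 3 gave -0.68 and -0.64.

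**Figure D2:**
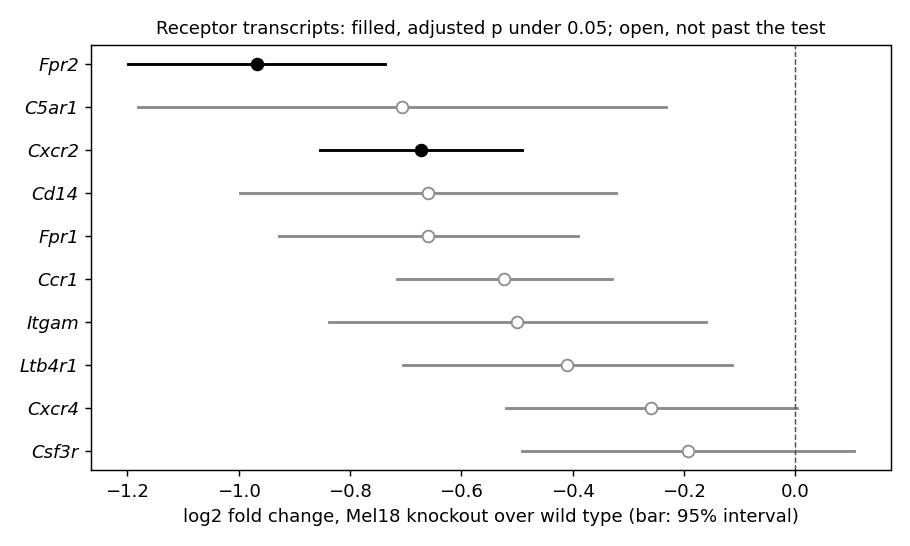
Log2 fold change of knockout over wild type for each receptor (points) with its 95% interval from the quasi-likelihood fit (bars), largest decrease at the top; filled points passed the test over all genes. Fpr2 at -0.97 and Cxcr2 at -0.67 are filled, and the intervals of Cxcr4 and Csf3r reach 0.

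Fpr2 and Ccr1 were higher in wild type mouse 1 than in wild type mouse 3, and the other 8 were higher in wild type mouse 3. The median log2 ratio of wild type mouse 3 over mouse 1 was 0.25 for the receptors and 0.021 for all genes, and that of knockout mouse 6 over mouse 5 was -0.00087 for the receptors. The size of the differences therefore depended on the wild type library used. Against wild type mouse 3, the median log2 ratio of the receptors was -0.65 for knockout mouse 5 and -0.66 for knockout mouse 6. Against wild type mouse 1, it was -0.48 for knockout mouse 5 and -0.46 for knockout mouse 6. The median of all genes in the same pairs lay between -0.0046 and 0.0025. The receptors were lower in 10 of 10 for 3 pairs and in 9 of 10 for knockout mouse 6 over wild type mouse 1. These pairs reuse the same 4 libraries, so they are not separate comparisons, and the share of all genes lower in each was not counted.

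Levels between genes were compared per kilobase of the deposited gene length. Cxcr4 was highest in every library, at 114 and 116 CPM per kb in knockout mice 5 and 6 and 124 and 151 in wild type mice 1 and 3. Ltb4r1 followed, at 82.9 and 80.4 CPM per kb in knockout and 94.5 and 122 in wild type mice. Csf3r came after these, at 64.6 and 65.8 CPM per kb in knockout and 65.2 and 83.9 in wild type mice. This order of the first 3 was the same in all 4 libraries. Fpr2, Cxcr2 and Itgam came next, at means of 18.5, 17.3 and 16.3 CPM per kb in knockout mice. In wild type mice Fpr2 averaged 36.2, Cxcr2 27.6 and Itgam 23.1 CPM per kb. In knockout mice the range of Itgam reached over those of Fpr2 and Cxcr2, while in wild type mice the 3 ranges were apart. Fpr1, Ccr1, C5ar1 and Cd14 were the lowest, between 7.46 and 12.8 CPM per kb in knockout mice and between 11.8 and 21.5 in wild type mice, and C5ar1 and Cd14 exchanged places between libraries.

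Other genes of neutrophil recruitment had a median log2 fold change of -0.13. The list of 141 further ligands, receptors, adhesion genes and signalling genes had 132 measured members. Of these, 0 were called lower and 2 higher by the quasi-likelihood test. Of all genes, 0.135% were called, and 0.032% were called higher. Without adjustment, 30 of the 132 were lower and 2 higher at a p under 0.05, beside 868 and 520 of all genes. The authors' adjusted p was under 0.05 for 8 lower and 2 higher, beside 119 and 57 of all genes. The groups were apart for 54 with knockout lower and for 10 with knockout higher, beside 3269 and 3334 of all genes. By these counts, lower levels were not particular to the 10 receptors. The 2 called higher were Ppbp, whose product is processed to a ligand of CXCR2, and Pf4, another platelet chemokine. Ppbp was at 34.3 and 29.7 CPM in knockout mice 5 and 6 and 9.84 and 11.02 CPM in wild type mice 1 and 3 (log2 fold change 1.62, adjusted p = 0.0160). Pf4 was at 60.4 and 49.8 CPM in knockout mice, against 28.9 and 29.4 CPM in wild type (log2 fold change 0.92, adjusted p = 0.0477). Neither call held with limma voom (adjusted p of 0.0803 for Ppbp and 0.0975 for Pf4) or without knockout mouse 5 (0.0891 and 0.304). That of Pf4 was also lost with total counts only (0.0543), without robust estimation (0.0903) and with a filter of 1 CPM in 2 libraries (0.0617). Both are products of megakaryocytes, and the 8 megakaryocyte markers, these 2 among them, summed to 392 and 342 CPM in knockout and to 269.9 and 244 CPM in wild type mice; the part of such cells in the result was not tested.

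Among the ligands and the enzymes that make lipid mediators, 21 of 26 were measured and the median log2 fold change was -0.32. Anxa1, which encodes an FPR2 ligand, was at 492 and 491 CPM in knockout and 780.1 and 811 CPM in wild type mice, without passing (log2 fold change -0.69, quasi-likelihood adjusted p = 0.0848). Cxcl2, a CXCR2 ligand, was at 2.45 and 2.93 CPM in knockout and 11.2 and 6.10 CPM in wild type mice (log2 fold change -1.69, adjusted p = 0.165). Cxcl12, which retains neutrophils through CXCR4, was at a mean of 3.53 CPM in knockout and 2.68 CPM in wild type mice (adjusted p = 0.718). It was named outside the rule for named genes, after its values were seen.

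The other receptors, 30 measured of 34, had a median log2 fold change of -0.27 with 0 called in either direction, and 10 were lower at an unadjusted p under 0.05, beside 5.56% of all genes. Those with the smallest p were the histamine receptor Hrh2 (-0.44 on the log2 scale, quasi-likelihood adjusted p = 0.280), the interleukin-3 receptor chain Il3ra (-0.29, adjusted p = 0.290), its partner chain Csf2rb2 (-0.32, adjusted p = 0.291) and Tlr2 (-0.38, adjusted p = 0.294). The 19 adhesion genes had a median of -0.09, also with 0 called. Beside Itgb2, Itgb2l (-0.70, adjusted p = 0.246) and Jaml (-0.48, adjusted p = 0.214) were among those with the smallest p. In the lipopolysaccharide pathway, which CD14 serves, the 9 genes had a median of -0.03 and 0 were lower or higher even at an unadjusted p under 0.05. Its 4 genes with the smallest p were Myd88 (-0.15), Irak3 (-0.14), Lbp (-0.08) and Irak4 (0.08). The 53 genes of receptor signalling had a median of -0.07 with 0 called. They were led by Rgs2 (-0.39, adjusted p = 0.214) and Rgs16 (-1.31, adjusted p = 0.383), which restrain G protein signals. Beside them were Socs3, a brake on the G-CSF receptor (-0.85, adjusted p = 0.294), and Arrb2, a receptor-desensitising arrestin (-0.39, adjusted p = 0.334). Rgs16 was near the floor, with 13 counts in each knockout library and 29 and 23 counts in wild type mice 1 and 3.

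**Figure D3:**
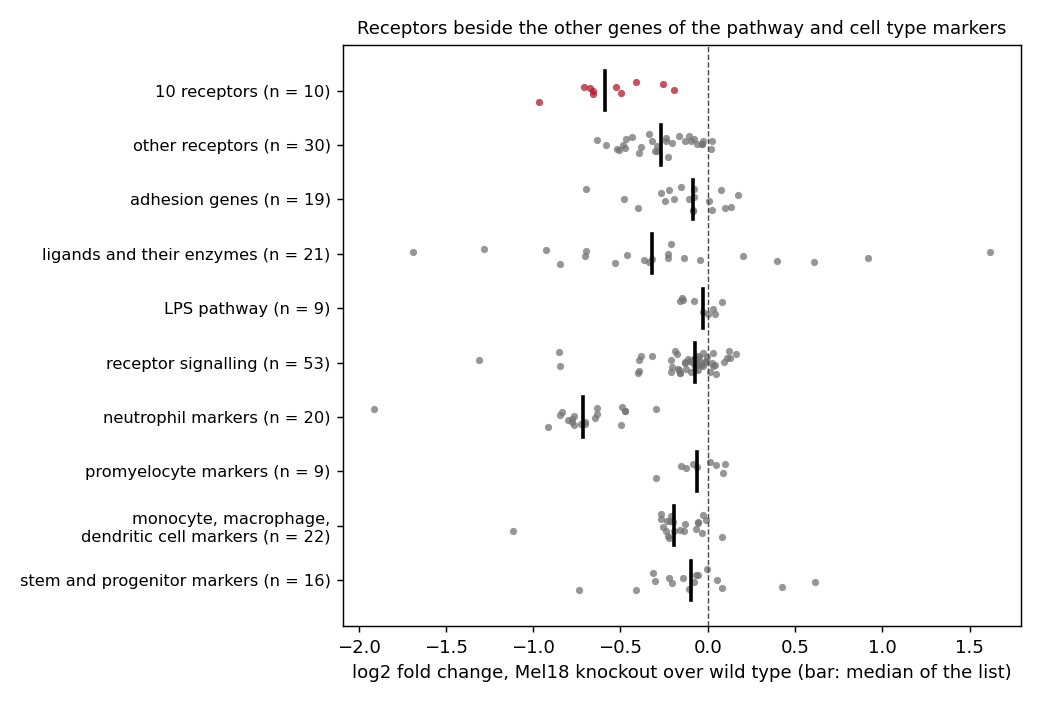
Log2 fold change of knockout over wild type for each measured gene (points) of the 10 receptors (red) and of the pathway and marker lists (grey), with each list's median (black bar). The medians of the receptors (-0.59) and of the neutrophil markers (-0.71) lie farthest below 0, and that of promyelocyte markers lies at -0.06.

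The neutrophil marker list had a lower summed level in both knockout libraries than in either wild type library. Its 20 genes, all measured and none at 0 in any library, summed to 17650 and 18412 CPM in knockout mice 5 and 6 and to 24070 and 34505 CPM in wild type mice 1 and 3. These markers had a median log2 fold change of -0.71, with 1 of 20 lower by the quasi-likelihood test (Retnlg, adjusted p = 0.0449) and 0 higher. At an unadjusted quasi-likelihood p under 0.05, 18 of the 20 were lower, beside 8 of the 10 receptors. For 19 of the 20 the groups were apart with knockout lower, beside 9 of the 10 receptors. The authors' adjusted p was under 0.05 for 10 of the 20, all lower. The most abundant of these markers were S100a9 and Ngp. Markers of promyelocytes, an earlier stage, summed to 22954 and 20622 CPM in knockout and 20669 and 22149 CPM in wild type mice. Stem and progenitor markers summed to 1273 and 1191 CPM in knockout and 1383 and 1137 CPM in wild type mice. Those of monocytes, macrophages and dendritic cells summed to 3549 and 3849 CPM against 3783 and 4170 CPM, with 1 of 22 called lower and 0 higher. Stroma and endothelium markers summed to 723 and 679.7 CPM in knockout and 148 and 244 CPM in wild type mice (median log2 fold change 1.75, 0 of 11 called). Both knockout libraries lay above both wild type libraries for 8 of these 11, beside 3334 of all 15607 genes, and below for 0. At an unadjusted quasi-likelihood p under 0.05, 5 were higher and 0 lower, beside 520 higher of all genes. By the authors' adjusted p, 4 of these markers were higher, beside 57 of all genes, and 0 lower. Those of T and NK cells summed to 430.1 and 429 CPM in knockout and 538 and 432 CPM in wild type mice (median -0.41, 0 of 10 called), and those of B cells to 1324 and 1065 CPM against 2392 and 1169 CPM (median -0.35). Erythroid markers summed to 3373 and 2803 CPM in knockout and 2320 and 2824 CPM in wild type mice (median 0.25). The part of these cells in the receptors' differences was not tested. The fraction labelled as stem and progenitor cells held transcripts of the neutrophil marker list in all 4 libraries. In bulk RNA, fewer cells of a type and less RNA per cell cannot be told apart.

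Set against the summed neutrophil markers, the receptors were compared again as reads per 1000 marker reads. The marker sum was itself lower in both knockout libraries, so a gene that differed by less than the sum lies higher in knockout on this scale. Cxcr2 had 2.95 and 2.90 in knockout mice 5 and 6, and 3.36 and 2.54 in wild type mice 1 and 3. Fpr2 had 1.41 and 1.26 in knockout and 2.05 and 1.29 in wild type mice. The marker sum was 24070 CPM in wild type mouse 1 and 34505 CPM in mouse 3, where Cxcr2 was at 80.9 and 87.5 CPM. The spread of Cxcr2 between wild type mice on this scale therefore came mostly from the sum, in which S100a9 and Ngp weigh most. On this scale the groups overlapped for Cxcr2, and knockout mouse 5 lay above wild type mouse 3 for Fpr2. The groups also overlapped for Fpr1, C5ar1, Ccr1, Itgam and Cd14. Csf3r had 13.2 and 12.9 reads per 1000 marker reads in knockout and 9.78 and 8.77 in wild type mice. Cxcr4 had 11.6 and 11.4 in knockout and 9.31 and 7.90 in wild type mice, and Ltb4r1 had 6.55 and 6.08 in knockout and 5.47 and 4.94 in wild type mice. For these 3 both knockout libraries lay above both wild type libraries, which on this scale held for 78.8% of all genes. No test was made on these ratios, and the part of neutrophil content in the falls of Fpr2 and Cxcr2 was not tested.

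**Figure D4:**
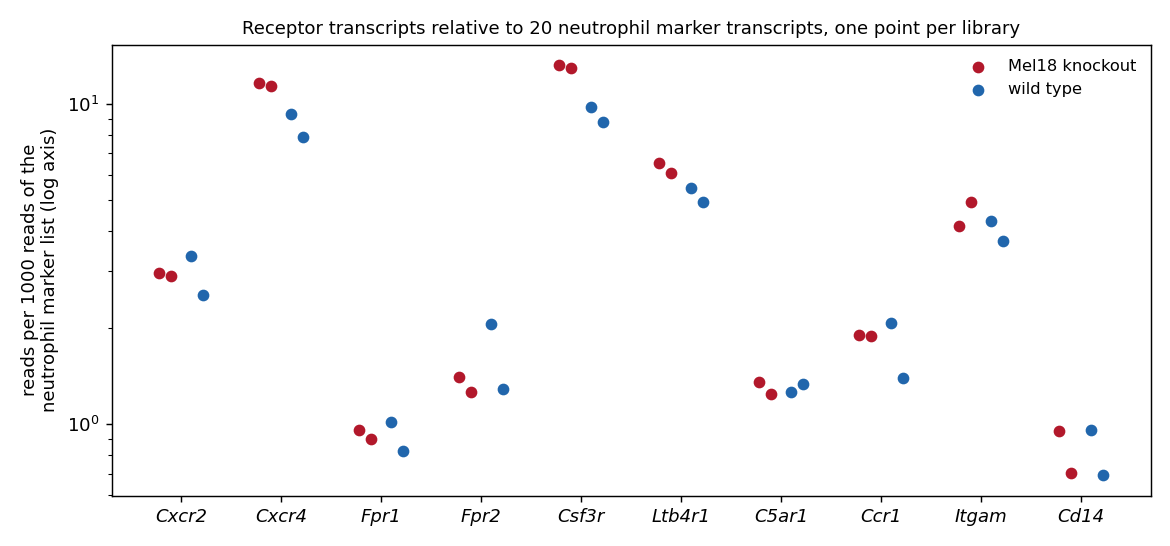
Reads of each receptor per 1000 reads of the 20 neutrophil markers (vertical log axis) in each Mel18 knockout (red) and wild type (blue) library. The groups overlap for Cxcr2, Fpr1, Fpr2, C5ar1, Ccr1, Itgam and Cd14, and the knockout points lie above the wild type points for Cxcr4, Csf3r and Ltb4r1.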

How the data were processed

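RNA was measured in 4 libraries of lineage-negative mouse bone marrow, made with a SMART-Seq v4 kit and Nextera XT, per the labels' protocols. FastQC, MultiQC 0.11.5, Trimmomatic 0.40, STAR 2.5, edgeR 3.28.1 and build mm10 are named in the submitters' processing notes. The counter, the annotation release and strandedness were not given in the sources used here. Values in the deposited table include raw whole-number counts per gene. Its log2 CPM, log2 RPKM and log2 fold changes, its p-values and its false discovery rates were also made by the authors, per the file headers. A further 2 columns belong to no labelled sample and were not used.

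The deposited counts were tested in R 4.3.3 with edgeR 4.0.16, using TMM scaling, robust quasi-likelihood F tests and Benjamini-Hochberg adjustment over 15607 genes. The table already held only genes with at least 10 counts in 1 library, and filterByExpr removed 0 more. Standard errors came from the F statistic, and 95% intervals from the fit's degrees of freedom. The fit had 2 residual degrees of freedom and a common biological coefficient of variation of 13.3%. The mice are numbered singly in the labels. The procedure was tested on simulated data. Ratios per library are of TMM-scaled CPM.

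Of 15607 gene identifiers, 15135 matched GENCODE M21, all 10 receptors among them. Transcripts were aligned with BLASTN 2.17.0. The receptors, the 5 pathway lists and the marker lists were chosen with earlier results of these data known. Lcn2, Cd177 and Il1r2 stand in a pathway list and in the neutrophil list. Genes were named if they were one of the receptors or, within a pathway list, called or among the 4 with the smallest p. A gene that this rule allowed is not reported here. Alternatives were other scaling, DESeq2 1.42.0, limma 3.58.1 voom, other edgeR tests, other filters and leaving out each library.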

Additional observations from a re-analysis of the deposited data

How the results depend on the processing

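Each receptor had at least 577 counts per library, in 2 mice per group. No paired analysis was possible because the groups share no mouse number. Since filterByExpr removed 0 genes, the fit with no filter was the main fit again and could not differ from it. Receptor log2 fold changes without robust estimation were also those of the main fit, and those of the likelihood ratio test nearly so. All 10 receptors kept a negative log2 fold change under all 12 alternatives, these among them. Of these 120 values, 98 stayed on the same side of the threshold, 13 passed it and 9 no longer did.

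The number of called receptors was 2 of 10 with DESeq2 size factors, with total counts and with no filter, the last being the main fit again. It was 6 with the DESeq2 Wald test (all genes 216, pathway genes 15), 4 with the edgeR likelihood ratio test (177 and 10), 1 with at least 1 CPM in 2 libraries (10 and 1), and 0 without robust estimation (4 and 1). With limma voom it was 0 (0 and 0, with 8 receptors, 1363 genes and 31 pathway genes at an unadjusted p under 0.05). With total counts only, 1 pathway gene was called. The causes were not tested. Leaving out 1 library gave 0 to 7 called receptors, 5 to 844 called genes and 0 to 21 called pathway genes. There the lone library is assumed to vary like the other group. The median log2 fold change of the receptors was -0.67 without wild type mouse 1 and -0.47 without wild type mouse 3. It was -0.58 without knockout mouse 5 and -0.60 without knockout mouse 6. Over all genes the median lay between -0.010 and 0.0026 in the same fits. Irak4 ranged from -0.0091 without wild type mouse 1 to 0.17 without mouse 3, and its sign turned in the first.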
